A study of Mus musculus with 13 samples.

Results

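The genes of DNA replication and mitosis were followed in mouse embryonic fibroblasts (MEFs) depleted of the histone methyltransferase Setdb1, treated with 5-azacytidine (5-aza), or both. The set has 50 members of the 25965 genes in the deposited table, chosen by name: 25 S phase genes and 25 mitotic genes. Each of the 50 was present once, and all 50 reached the level needed to be tested, which was 1 RPM (the gene's reads scaled to the depth of the library, in reads per M, mega, of reads) or more in no fewer than 3 out of 12 libraries with a hairpin. They lie on 17 chromosomes, with Pola1 the only one on the X.

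The 12 hairpin libraries came from primary X Xist∆A/X PGK MEFs of E13.5 embryos, in which the deleted Xist A-repeat leaves the PGK-strain X as the inactive one. Cells were transduced with hairpin retroviruses, selected with puromycin and harvested on day 7; 5-aza, an inhibitor of DNA methylation, was added on day 3 for 24 h to the treated cultures. The control hairpin group has 3 libraries without 5-aza (luciferase hairpin replicate 1, non-silencing hairpin replicates A and B) and 3 with it, and the Setdb1 hairpin group likewise has 3 without (shSetdb1.6 replicate 1, shSetdb1.4 replicates A and B) and 3 with; a 13th library, from cells given 5-aza with no hairpin named, carries the library name PGK, with no genotype stated for it alone, and entered no comparison. In the study's design, cells with Setdb1 hairpins were heterozygous for a gene-trap allele of Setdb1 and those with the non-silencing hairpin were wild type; the labels give no genotype for single libraries, so hairpin, genotype and embryo cannot be told apart. Nothing states which libraries came from separate embryos, so p-values measure the spread between these libraries only.

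Replication begins when the MCM helicase is loaded onto origins in G1 by Cdc6 and Cdt1 and fired in S phase, under the control of E2F transcription factors and cyclin E. Mitotic genes follow later in the cycle: cyclin B with Cdk1 drives entry, Plk1 and the Aurora kinases organise the spindle, and Cdc20 turns the anaphase promoting complex on to separate the chromatids. Transcription of both groups rises and falls with the cell cycle, so that the level of their RNA in a bulk culture is widely read as a measure of proliferation. In such samples a larger share of cycling cells and more RNA of these genes per cell cannot be told apart.

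The 2 groups are known to be driven through different promoter elements, E2F sites in S phase genes, and the cell cycle homology region (CHR) together with CCAAT boxes in mitotic genes. RefSeq promoters of GRCm38.p6, from 250 bases before to 50 bases after the start, matched 42 of the 50 members. An E2F motif (TTTCCCGC, TTTCGCGC, TTTGCCGC or TTTGGCGC, on either strand) was found in 8 of the 26 S phase promoters (30.8%), in 1 of the 21 mitotic promoters (4.76%) and in 2.26% of all 32851 promoters of the table. A CHR motif (TTTGAA or TTTAAA, on either strand) was found in 90.5% of the mitotic promoters, 23.1% of the S phase promoters and 27.6% of all. A CCAAT box, again on either strand, was in 90.5%, 53.8% and 37.4% of these. Both a CHR motif and a CCAAT box were held by 18 of the 21 mitotic promoters (85.7%), against 10.7% of all. Matches were counted without regard to overlap, and a match is a run of letters, not a shown binding site.

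The 160 bases before the RefSeq start are printed for 3 S phase and 3 mitotic genes, each 5′ to 3′ on the gene's own strand, with motif matches in capitals. Values are described further on, those of Mcm6 only within counts and ranges. Bases just after the start were found in a GENCODE transcript for 34 of the 42 members, but not for Mcm5 and Mcm6. The Cdc6 stretch lies inside the gene as the deposited data place it (98907801-98923940). Matches to the other strand appear as the reverse complement (GCGCCAAA for an E2F motif, ATTGG for a CCAAT box), and overlapping E2F matches run together. The positions are chr8:75109349-75109508 (plus strand) for Mcm5, chr1:128359706-128359865 (minus) for Mcm6, chr11:98907991-98908150 (plus) for Cdc6, chr13:100786487-100786646 (minus) for Ccnb1, chr7:122159275-122159434 (plus) for Plk1 and chr4:118437344-118437503 (minus) for Cdc20.
Mcm5: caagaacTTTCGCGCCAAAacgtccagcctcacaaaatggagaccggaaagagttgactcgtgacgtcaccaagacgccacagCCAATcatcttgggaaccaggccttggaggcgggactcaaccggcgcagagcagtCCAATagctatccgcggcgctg
Mcm6: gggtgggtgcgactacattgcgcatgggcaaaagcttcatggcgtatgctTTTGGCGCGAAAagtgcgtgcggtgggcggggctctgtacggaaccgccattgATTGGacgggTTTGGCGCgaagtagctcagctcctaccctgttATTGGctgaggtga
Cdc6: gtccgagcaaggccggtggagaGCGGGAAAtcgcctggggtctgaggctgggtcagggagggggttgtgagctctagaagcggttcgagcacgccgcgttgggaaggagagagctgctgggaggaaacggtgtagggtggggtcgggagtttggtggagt
Ccnb1: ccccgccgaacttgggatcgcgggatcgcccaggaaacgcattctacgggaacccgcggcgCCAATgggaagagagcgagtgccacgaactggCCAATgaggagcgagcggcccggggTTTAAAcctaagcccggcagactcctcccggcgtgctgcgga
Plk1: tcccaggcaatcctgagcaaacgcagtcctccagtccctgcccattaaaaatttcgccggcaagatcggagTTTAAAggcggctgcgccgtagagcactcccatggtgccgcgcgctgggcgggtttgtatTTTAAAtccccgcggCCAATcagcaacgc
Cdc20: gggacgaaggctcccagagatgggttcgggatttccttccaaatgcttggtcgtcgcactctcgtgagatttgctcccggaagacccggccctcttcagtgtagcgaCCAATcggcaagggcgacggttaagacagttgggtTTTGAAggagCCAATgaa
E2F matches stand in the first 3, where Mcm5 and Mcm6 each have more than 1. The 3 mitotic genes each have CHR letters and at least 1 CCAAT box before the start.

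**Figure D1:**
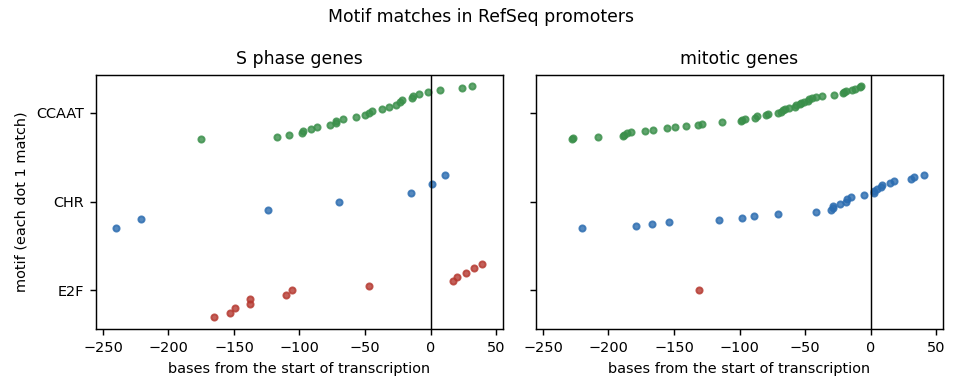
Positions of motif matches in the RefSeq promoters of the S phase genes (left) and mitotic genes (right), with bases from the start of transcription on the x axis and each dot 1 match; dots of a row are spread vertically for sight only. The S phase genes hold 13 E2F matches and the mitotic genes 1, and the 45 CCAAT matches of the mitotic genes all lie before the start.

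Setdb1 RNA, the target of the hairpins, is given first as a check on the labels. The guide strands carried by the 2 Setdb1 hairpins, shown because the replicates of the group differ by them, read as follows with the seed (bases 2 to 8) in capitals.
shSetdb1.4: tTTGTCTGcaaagtcatctgtc
shSetdb1.6: tAGATCTTgagaactgcttttc
Each guide is complementary over 22 bases to the coding sequence of Setdb1, in GENCODE exon 16 of 22 (chr3:95327805-95327826, minus strand, mm10) for shSetdb1.4 and exon 5 (chr3:95348003-95348024) for shSetdb1.6. Setdb1 stood at 46.4, 46.1 and 46.3 RPM in the control hairpin libraries (here and below in the order replicate 1, A, B), and at 12.1, 15.4 and 14.7 RPM with a Setdb1 hairpin. With 5-aza the values were 43.9, 42.7 and 43.4 RPM against 10.5, 14.5 and 13.7 RPM. Expressed as a log2 fold change, this was -1.73 ± 0.11 (SE) without 5-aza and -1.76 ± 0.11 with it, with limma adjusted p = 1.52e-06 and 1.25e-06. The lowest Setdb1 level in each condition was in the shSetdb1.6 library.

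Libraries held 36.4 to 51.3 M reads in genes (17.4 M in the one given no hairpin by its label), and the lowest member value rested on 159 reads. Fibroblast markers, all 12 tested, summed to between 26031 and 41330 RPM in every hairpin library, and the erythroid list to at most 0.378 RPM. The summed level of 6 epithelial markers, of which 2 passed the filter, moved with both factors: 2.74 to 3.27 RPM in the control hairpin libraries, 9.26 to 11.2 RPM with 5-aza, 9.68 to 10.6 RPM with a Setdb1 hairpin and 21.0 to 23.6 RPM with both. Neural markers did so too, from 295 to 354 RPM in the controls up to 449 to 521 RPM with both, and 2 other lists moved with 5-aza. The 12 macrophage markers (3 tested) summed to 10.9 to 11.7 RPM in the untreated and 14.1 to 16.4 RPM in the treated hairpin libraries. The 6 endothelial markers (3 tested) were lower in sum with 5-aza, at 4.22 to 6.28 RPM against 7.05 to 8.2 RPM with control hairpins, and at 4.44 to 5.97 RPM against 6.21 to 6.68 RPM with Setdb1 hairpins. Skeletal muscle markers summed to 175 to 231 RPM (Myf5 at 0 throughout). The part of these other cell types in the results was not tested.

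The 2 gene groups changed as blocks from library to library. Each library was given the mean, over the genes of a group, of log2 RPM minus that gene's mean over the 12 hairpin libraries. For the mitotic genes this mean was -0.13, -0.04 and 0.01 in the control hairpin libraries, -0.38, -0.63 and -0.44 with 5-aza, 0.54, 0.25 and 0.30 with a Setdb1 hairpin and 0.33, 0.02 and 0.17 with both. The S phase genes gave -0.12, -0.06 and -0.04, then -0.22, -0.49 and -0.29, then 0.43, 0.15 and 0.19, and then 0.31, -0.04 and 0.18. All libraries with a Setdb1 hairpin therefore lay above all control hairpin libraries of the same 5-aza condition, with the mitotic genes further apart than the S phase genes.

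**Figure D2:**
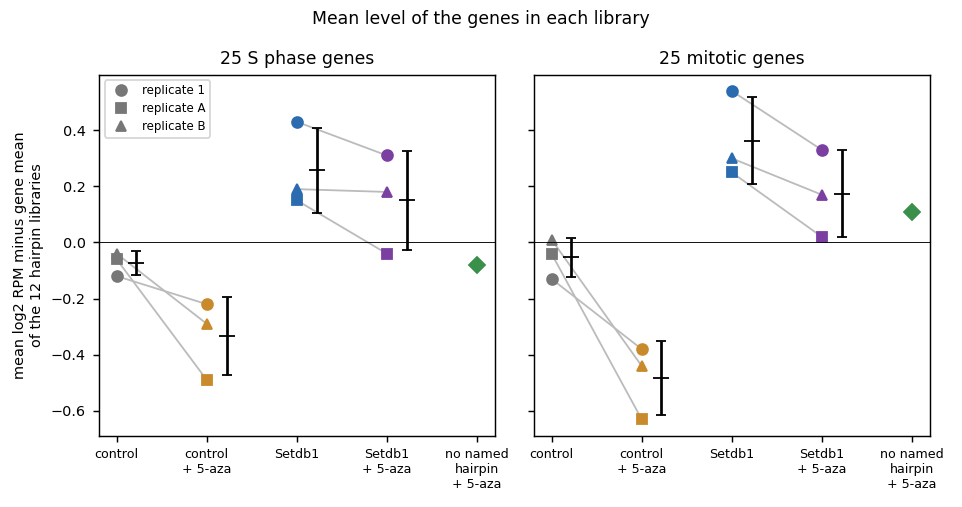
Mean log2 RPM of the 25 S phase genes (left) and the 25 mitotic genes (right) in each library, relative to each gene's mean over the 12 hairpin libraries. Symbols mark replicates, grey lines join libraries of the same hairpin and replicate name, black bars give the group mean ± SD (n = 3), and the green diamond is the library with no named hairpin; all 6 lines of the mitotic genes slope down with 5-aza.

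In summed RPM the mitotic genes came to 1189 ± 56.4 (SD, n = 3) in control hairpin cells, 863 ± 65.1 with 5-aza, 1579 ± 170 with a Setdb1 hairpin and 1345 ± 147 with both. The S phase genes summed to 815 ± 3.64, 690 ± 78.9, 992 ± 100 and 964 ± 138 RPM. RPM is not divided by transcript length, so long transcripts weigh more in these sums; Mki67 gave 185 to 205 RPM of the control total.

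**Figure D3:**
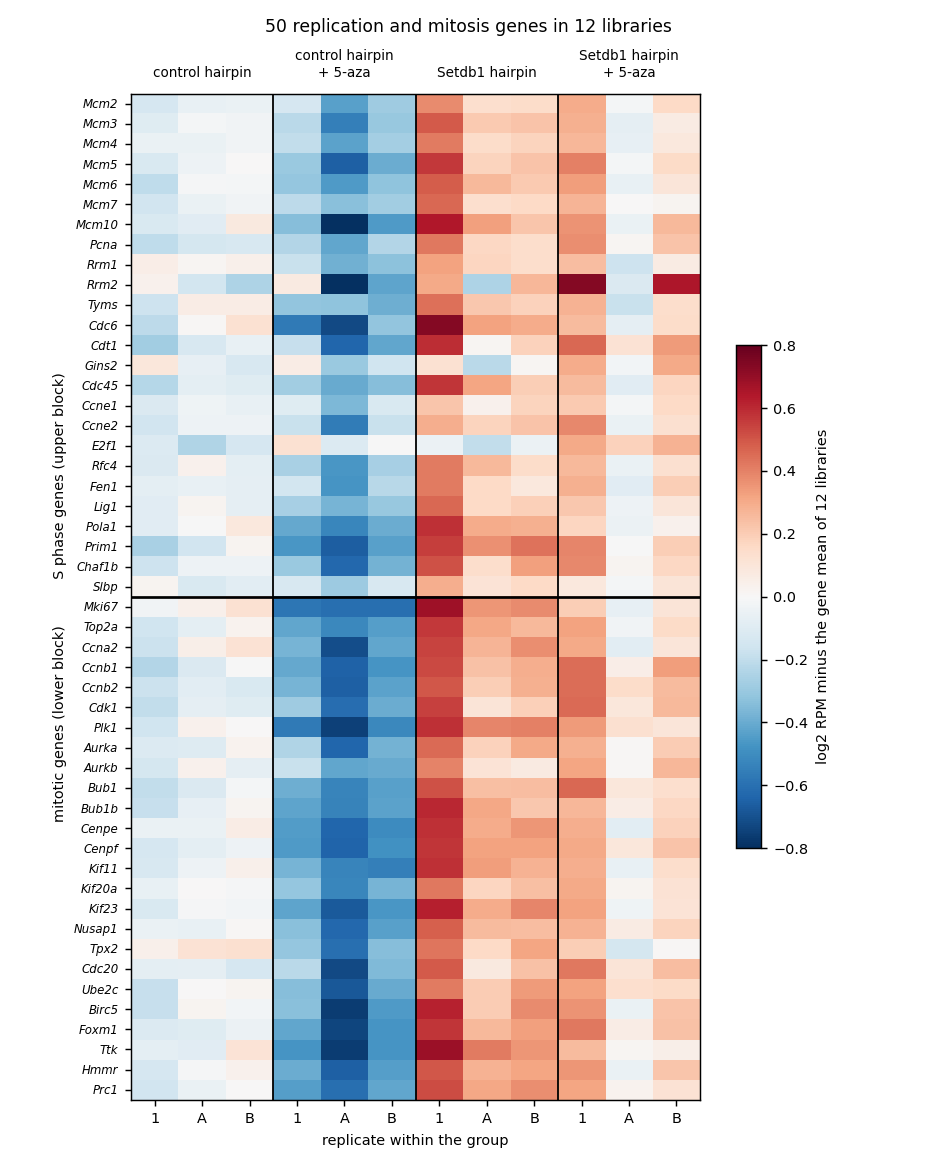
Log2 RPM of each of the 50 genes (rows) in the 12 hairpin libraries (columns, by group and replicate), minus the gene's mean over those libraries; red is higher and blue lower, S phase genes above and mitotic genes below the thick line. The shSetdb1.6 library without 5-aza is the highest of its condition for all 50 genes. Control hairpin + 5-aza replicate A is the lowest of all 12 libraries for 46. The like shares of all genes were not computed.

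Which members differed between Setdb1 and control hairpin cells in the absence of 5-aza was asked first. By limma, with p-values adjusted over all 13134 genes tested, 34 of the 50 rose and none fell: 22 of the 25 mitotic genes and 12 of the 25 S phase genes. Of all genes tested, 9.01% were called higher and 3.4% lower. The median log2 fold change was 0.44 for the mitotic genes and 0.32 for the S phase genes, against 0.031 for all genes. All 50 values were positive, and 46 had an unadjusted p under 0.05, as did 27.6% of all genes in either direction. For 47 of the 50 every Setdb1 hairpin library lay above every control hairpin library, which held in that direction for 24% of all genes tested.

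Among the mitotic genes the rises of Plk1, the kinase of spindle poles and mitotic entry, and of Ttk, the spindle checkpoint kinase Mps1, were the largest and equal to 2 decimals. Plk1 stood at 24.7, 28.2 and 27.6 RPM in control hairpin cells and 41.3, 36.1 and 36.5 RPM with a Setdb1 hairpin. The groups did not overlap, and the log2 fold change was 0.50 ± 0.09 (SE; limma adjusted p = 0.003). Cenpf, a kinetochore protein of late G2, gave 35.1, 36.5 and 37.5 RPM against 57.2, 48.2 and 48.1 RPM, 0.49 ± 0.08 on the log2 scale (limma adjusted p = 0.00181). Ttk gave 8.69, 8.59 and 9.9 RPM against 14.7, 12.2 and 11.7 RPM (0.50 ± 0.11, limma adjusted p = 0.0115). In each of these genes the shSetdb1.6 library was the highest, and both shSetdb1.4 libraries were still above the controls.

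The spindle checkpoint and kinetochore genes (6 of 6 rose, log2 fold changes 0.43 to 0.50) and those of mitotic entry (5 of 5, 0.40 to 0.47) had similar values. The latter were Ccna2 and Ccnb1 (cyclins A2 and B1, 0.40 and 0.47), Ccnb2, Cdk1 (the kinase they activate, 0.40) and Foxm1 (a transcription factor of G2 genes, 0.47). Mki67, the antigen of the Ki-67 proliferation stain, went from 185, 194 and 205 RPM to 301, 240 and 245 RPM, a log2 change of 0.42 ± 0.08. Top2a, which disentangles chromosomes, rose by 0.45 and Birc5, the survivin subunit of the chromosomal passenger complex, by 0.46. The calls of Ccna2 and Birc5 were each lost under 11 and that of Cdk1 under 12 of 21 alternative settings. The 3 mitotic genes without a call were Aurkb, the kinase of that complex (0.26, limma adjusted p = 0.135), Tpx2, the spindle activator of Aurora A (0.21, adjusted p = 0.175), and Cdc20 (0.36, adjusted p = 0.0897). Cdc20 stood at 25.9, 26.0 and 24.9 RPM against 38.4, 28.9 and 32.1 RPM, so that its groups were apart although the spread with a Setdb1 hairpin was wide.

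The S phase genes were less even. Prim1, the catalytic primase subunit, rose most, from 7.8, 8.38 and 9.47 RPM to 13.7, 12 and 12.6 RPM (log2 fold change 0.58 ± 0.11, limma adjusted p = 0.00435). Cdc45, part of the active helicase, went from 8.1, 9.01 and 8.89 RPM to 14.1, 11.8 and 10.9 RPM (0.50 ± 0.10, adjusted p = 0.00964), and the licensing factor Cdc6 from 7.54, 8.8 and 9.51 RPM to 14.5, 10.9 and 10.7 RPM (0.48 ± 0.14, adjusted p = 0.0451, lost under 12 of the 21 alternatives). Of the replication fork genes 5 of 6 rose (log2 fold changes 0.29 to 0.58 over the 6), among them the sliding clamp Pcna (0.40), and of the MCM2 to MCM7 helicase genes 3 of 6 (0.29 to 0.39 over the 6). Slbp, which binds histone mRNA, rose by 0.25 (adjusted p = 0.0259).

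Mcm2 (0.30, limma adjusted p = 0.0522) and Mcm5 (0.38, adjusted p = 0.0703) fell just outside the threshold, as did the licensing factor Cdt1 (0.42, adjusted p = 0.0851). None of the 3 genes of nucleotide supply or the 3 of G1/S control was called. Ccne1 and Ccne2 (cyclins E1 and E2) gave 0.21 and 0.31, Rrm2, the regulated subunit of ribonucleotide reductase, 0.22 ± 0.25 and E2f1 0.07 ± 0.07 (adjusted p = 0.569). Gins2, a subunit of the replicative helicase, had the smallest value of the 50: 35.5, 31.8 and 30.5 RPM against 36.3, 28.7 and 33.7 RPM, a difference of 0.01 ± 0.12 with overlapping groups.

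These counts rested in part on the replicate 1 libraries, which carry other hairpins than A and B. The shSetdb1.6 library lay above both shSetdb1.4 libraries for all 50 members, by a mean log2 difference of 0.26. The luciferase library lay below both non-silencing libraries for 40 (mean -0.09). The shares of all genes placed like this were not computed, so these places are not shown to be particular to the members. Without the shSetdb1.6 library 7 mitotic and 3 S phase genes were called, and without the luciferase library 10 and 3, where calls of a rise over all genes also dropped, to 4.1% and 4.87%. Without non-silencing replicate A there were 14 and 6 (5.47% of all genes). The S phase count was 5 with non-silencing replicate B left out (6.06% of all genes) and 7 with treated shSetdb1.4 replicate B left out (7.4%). With non-silencing and shSetdb1.4 libraries alone 4 mitotic genes and no S phase gene were called by limma, beside 2.7% of all genes called higher. Medians were 0.29 and 0.22, and 21 and 13 had an unadjusted p under 0.05, as did 16.7% of all genes in either direction. All these calls were rises. Median centring moved the median of all genes to -0.018, with 6.02% of all genes called higher and 6.53% lower, and left 19 mitotic and 7 S phase rises.

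In 5-aza treated cells the difference between the hairpins was called for nearly the whole set. All 25 mitotic genes and 24 of the 25 S phase genes were higher with a Setdb1 hairpin, and none was lower, where 14.5% of all genes tested were called higher and 5.37% lower. Medians were 0.67 and 0.45 on the log2 scale, against 0.047 for all genes. For 48 of the 50 the groups did not overlap, a property shared in that direction by 24.6% of all genes. The control hairpin + 5-aza libraries are the reference here and the treated group in the next comparison, so that the values of these comparisons are not independent.

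Plk1 had the highest value of the mitotic genes, at 18.6, 16.4 and 19.3 RPM in control hairpin cells against 34.9, 30.1 and 29.5 RPM with a Setdb1 hairpin. This is a log2 fold change of 0.80 ± 0.09 (limma adjusted p = 0.000101), or 1.74-fold. Ccnb1 went from 16.4, 13.9 and 15.7 RPM to 29.7, 22.6 and 27.5 RPM (0.79 ± 0.11, adjusted p = 0.000574) and Foxm1 from 50.6, 40.6 and 48.6 RPM to 90.2, 70.1 and 79.2 RPM (0.77 ± 0.10, adjusted p = 0.00053). Other log2 fold changes were 0.70 for Cdk1, 0.69 for Birc5, 0.68 for Cdc20, 0.67 for Mki67, 0.61 for Top2a and Ccna2, and 0.53 for Aurkb. Tpx2 had the smallest of the 25 (0.44 ± 0.10, adjusted p = 0.00791).

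Of the S phase genes Rrm2 had the largest difference and the least certain one. It stood at 124, 64.2 and 88.4 RPM in control hairpin cells and 197, 109 and 185 RPM with a Setdb1 hairpin, so that the luciferase library lay above shSetdb1.4 replicate A and the groups overlapped. The log2 fold change was 0.83 ± 0.25 (limma adjusted p = 0.0381), and the call was lost under 9 of 21 alternative settings. Mcm10, which helps fire loaded origins, went from 7.86, 5.64 and 7.28 RPM to 12.8, 9.58 and 11.9 RPM (0.73 ± 0.14, adjusted p = 0.00519) and Prim1 from 6.76, 5.9 and 6.91 RPM to 12.2, 9.3 and 10.7 RPM (0.71 ± 0.11, adjusted p = 0.000875).

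Cdt1 rose by 0.71, Cdc6 by 0.65, Mcm5 by 0.63, Pcna by 0.50 and Mcm2 by 0.43. All 6 genes of the MCM helicase were called (0.37 to 0.63), as were all 6 fork genes (0.41 to 0.71). Smaller rises were seen for Ccne2 (0.46), Ccne1 (0.31), E2f1 (0.25, limma adjusted p = 0.0214) and Slbp (0.24). Only Gins2 was not called (0.33, adjusted p = 0.0667).

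The mitotic count of 25 held under all 21 alternatives, and with the non-silencing and shSetdb1.4 libraries alone 25 mitotic and 17 S phase genes were called, with 7.96% of all genes called higher. The S phase count fell to 12 without the shSetdb1.6 + 5-aza library (7.06% of all genes). In treated cells the luciferase library lay above both non-silencing libraries for 42 of the 50 members (mean log2 difference 0.16), the reverse of its place without 5-aza, and the shSetdb1.6 library above both shSetdb1.4 libraries for 48. For these places of single libraries, too, the shares of all genes were not computed. Median centring, which called 9.13% of all genes higher and 9.62% lower, left 24 S phase and 25 mitotic rises.

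**Figure D4:**
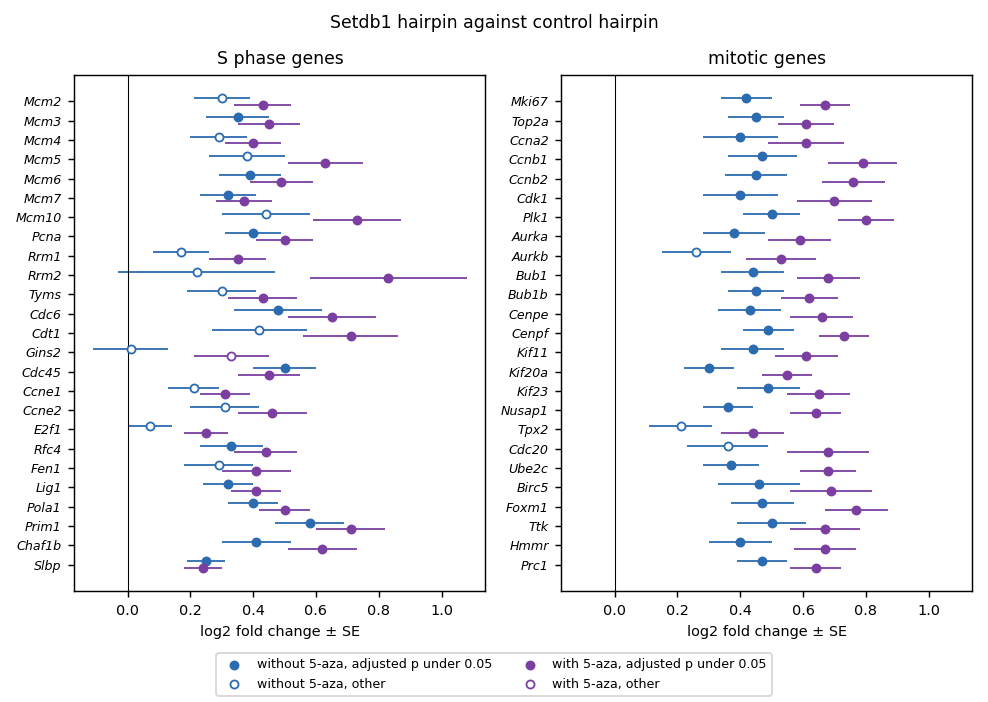
Log2 fold change (± SE, 3 libraries against 3) of each S phase gene (left) and mitotic gene (right) between Setdb1 and control hairpin cells, without 5-aza (blue) and with it (purple); filled points passed the limma test at an adjusted p under 0.05. All values lie above 0, with medians of 0.32 and 0.44 without 5-aza and 0.45 and 0.67 with it.

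The effect of 5-aza was then read within each hairpin. In control hairpin cells 29 of the 50 members fell and none rose: 22 mitotic and 7 S phase genes. Of all genes tested 5.34% were called lower and 18.8% in either direction, so that among all genes rises were the more frequent. The median log2 fold change was -0.43 for mitotic genes and -0.27 for S phase genes (all genes, 0.042), and 49 of the 50 values were negative. In 44 of the 50 every treated library lay below every untreated one, as did 12.7% of all genes.

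Mki67 fell most, from 185, 194 and 205 RPM to 126, 124 and 124 RPM, a log2 fold change of -0.64 ± 0.08 (limma adjusted p = 0.000466). Plk1 fell by 0.57 on the log2 scale (adjusted p = 0.00102) and Ttk by 0.55 (adjusted p = 0.00514). Among the others, Ccna2 fell by 0.50, Birc5 and Foxm1 by 0.45, and Ccnb1 and Top2a by 0.39. All 7 genes of the spindle and cytokinesis fell (-0.51 to -0.38), as did all 6 of the spindle checkpoint and kinetochore (-0.55 to -0.34). Cdk1 (-0.31), Cdc20 (-0.34) and Aurkb (-0.27) were the mitotic genes without a call, with limma adjusted p of 0.0918, 0.0872 and 0.093.

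The S phase genes that fell were Cdc6 (log2 fold change -0.51), Mcm10 (-0.49), Pola1, the catalytic subunit of polymerase alpha (-0.44), Mcm5 (-0.40), Prim1 (-0.39), Rrm1, the large subunit of ribonucleotide reductase (-0.33), and Lig1, the ligase of Okazaki fragments (-0.27). Pola1 had the lowest limma adjusted p, 0.00499, with 16.6, 17.6 and 18.7 RPM untreated against 13.3, 12.3 and 13.4 RPM treated. Mcm2 (-0.20), Cdt1 (-0.25), Ccne1 (-0.12), Ccne2 (-0.23), Pcna (-0.13), Slbp (-0.12) and Rrm2 (-0.29 ± 0.25) did not pass. E2f1 was the one member above 0, at 29.0, 26.4 and 28.5 RPM untreated and 34.0, 28.9 and 31.2 RPM treated (0.16 ± 0.07, adjusted p = 0.107).

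By replicate name, the mean change of the mitotic genes was -0.25 with the luciferase hairpin, -0.59 with non-silencing replicate A and -0.45 with B, and all 25 genes were lower in each. The S phase genes changed by -0.10, -0.43 and -0.25, with 20, 24 and 24 of 25 lower. The S phase count was the less stable: 1 gene fell without either non-silencing replicate A or B of the untreated cells (2.81% and 2.43% of all genes lower), 1 fell and 1 rose without the treated A library (4.89% lower), 3 fell without the treated B library (3.08%), and 12 without Setdb1 hairpin + 5-aza replicate 1 or A (5.37% and 6.15%). The mitotic count was 14 without untreated non-silencing replicate B. After median centring 25 mitotic and 13 S phase genes were lower, with 9.78% of all genes called higher and 10.2% lower.

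In Setdb1 hairpin cells fewer members passed the test. Of the mitotic genes 7 fell, of the S phase genes 1 fell (Pola1) and 1 rose (E2f1), beside 7.51% of all genes called lower and 21.4% higher. Medians were -0.20 and -0.15 on the log2 scale (all genes, 0.058), and treated libraries all lay below untreated ones in 8 of the 50, a share near the 12.2% of all genes. The mitotic genes called were Mki67 (-0.39 ± 0.08, limma adjusted p = 0.00615), Ttk (-0.38), Kif23 (a motor protein of cytokinesis, -0.30), Cenpe (a kinetochore motor, -0.28), Tpx2 (-0.28), Plk1 (-0.27) and Prc1 (a bundler of spindle midzone microtubules, -0.25). Mki67 went from 301, 240 and 245 RPM to 216, 180 and 202 RPM, still above its 124 to 126 RPM in the treated control hairpin cells.

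Pola1 changed from 26.5, 21.7 and 21.5 RPM to 19.9, 17.1 and 18.1 RPM (log2 fold change -0.34 ± 0.08, limma adjusted p = 0.0132). E2f1 went the other way, from 30.3, 27.2 and 30.3 RPM to 38.5, 35.5 and 37.8 RPM (0.35 ± 0.07, adjusted p = 0.0035), with no overlap between the groups. Several mitotic genes lay close to no change, among them Ccnb1 (-0.07 ± 0.11), Cdk1 (-0.01 ± 0.12), Cdc20 (-0.01 ± 0.13) and Aurkb (0.00 ± 0.11), and Birc5 (-0.22), Foxm1 (-0.15), Top2a (-0.23) and Ccna2 (-0.29) did not pass. Among S phase genes Cdc6 (-0.34), Mcm5 (-0.14), Mcm2 (-0.08), Pcna (-0.04), Ccne1 (-0.03), Ccne2 (-0.08), Cdt1 (0.04), Slbp (-0.13) and Rrm2 (0.32 ± 0.25) had no call.

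Libraries of the same Setdb1 hairpin and replicate name deviated together with and without 5-aza. Replicate 1 carries another hairpin than A and B, so a shared culture and the hairpin cannot be told apart in these deviations. With the replicate name as a block, in a fit that also blocked the control hairpin libraries, 13 mitotic genes fell and, of the S phase genes, 11 fell and 3 rose. Under the same block 11.9% of all genes fell and 28.3% rose, so that the share of S phase genes that rose was below that of all genes. By pair the mean change of the mitotic genes was -0.21 for shSetdb1.6, -0.23 for shSetdb1.4 replicate A and -0.13 for B, with 25, 24 and 21 of 25 lower. The unblocked mitotic count was 1 without the shSetdb1.6 library or without treated shSetdb1.4 replicate A or B, 3 without untreated non-silencing replicate A, 4 without replicate B of the untreated or of the treated non-silencing cells, (3.91% to 7.86% of all genes lower over these), and 12 after median centring (14% of all genes higher, 12.7% lower). Of the S phase genes 4 fell and 1 rose without the shSetdb1.6 + 5-aza library (5.45% of all genes lower, 15.1% higher). After median centring 5 fell and 1 rose.

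**Figure D5:**
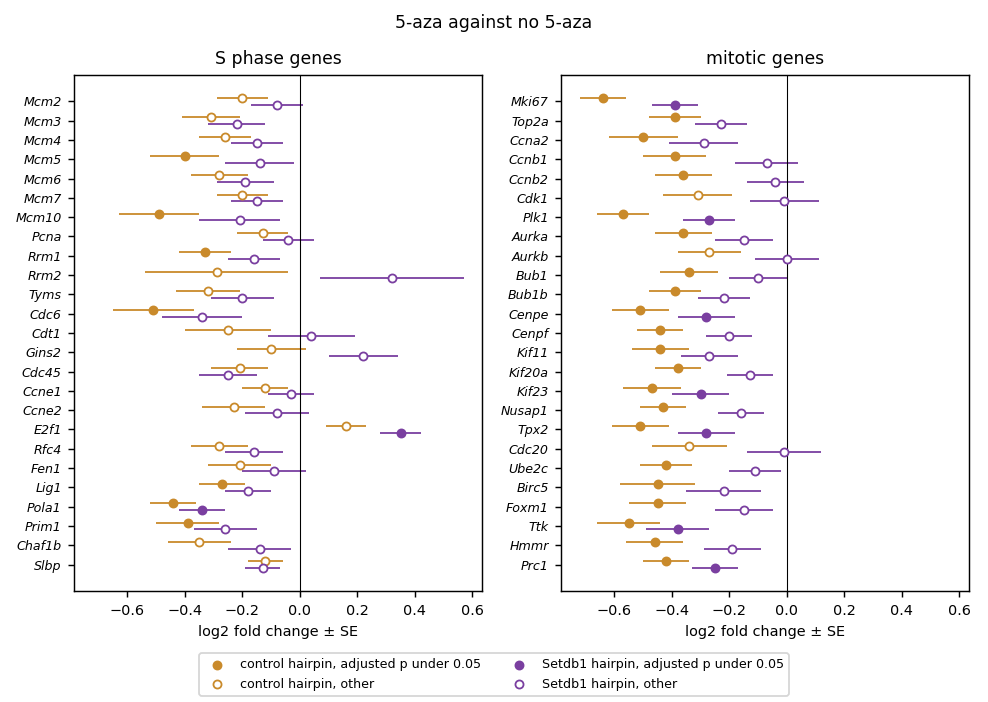
Log2 fold change (± SE, 3 libraries against 3) of each S phase gene (left) and mitotic gene (right) with 5-aza, in control hairpin cells (orange) and Setdb1 hairpin cells (purple); filled points passed the limma test at an adjusted p under 0.05. E2f1 lies above 0 in both, and 22 mitotic genes are filled in control hairpin cells against 7 in Setdb1 hairpin cells.

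Whether 5-aza acted differently in the 2 hairpin backgrounds was tested as an interaction. None of the 50 members passed (limma, smallest adjusted p = 0.794), against 0.388% of all genes, and 6 of them, all mitotic, had an unadjusted p under 0.05, as did 701 of all 13134 genes. With the non-silencing and shSetdb1.4 libraries alone none passed either, and 18 mitotic and 2 S phase genes had such a p (5.86% of all genes). The point estimates nevertheless leaned 1 way, with 48 of 50 positive and medians of 0.25 for mitotic and 0.12 for S phase genes (all genes, 0.020), a positive value meaning less decline with 5-aza in Setdb1 hairpin cells. Rrm2 had the largest, 0.61 ± 0.36, followed at 0.32 by Gins2, Ccnb1, Ccnb2 and Cdc20. The larger number of 5-aza calls in control hairpin cells is thus not shown to be a difference between the backgrounds.

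Other genes of the same processes, not members of the set, were counted in the same fit. Of 39 tested replication genes (40 listed), 13 rose with a Setdb1 hairpin without 5-aza and 31 with it, and none fell. Among all genes 9.01% and 14.5% rose. With 5-aza 10 fell in control hairpin cells, where 5.34% of all genes did, and 4 in Setdb1 hairpin cells, a share near the 7.51% of all genes. The largest called rises without 5-aza were those of Dut, the dUTPase, and Uhrf1, which brings the maintenance DNA methyltransferase to replicated DNA (0.43). Dut went from 13.6, 15.2 and 15.3 RPM to 23.9, 23.0 and 19.4 RPM (log2 fold change 0.58 ± 0.09). With 5-aza the largest called rises were those of Tk1, thymidine kinase (0.61), and Uhrf1 (0.60). In control hairpin cells 5-aza lowered Exo1, an exonuclease of mismatch repair (-0.56), and the origin recognition subunit Orc1 (-0.48) most. In Setdb1 hairpin cells the lowest called were the chromatin remodeller Hells (-0.32) and Atad2 (-0.27), while Exo1 (-0.35) was not called.

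Of 64 other mitotic genes 45 rose with a Setdb1 hairpin without 5-aza and 62 with it, beside 9.01% and 14.5% of all genes. None fell, and the medians were 0.39 and 0.61. Of the called genes Shcbp1, which acts at the midbody, led both comparisons (0.55 and 0.84). It was joined by Depdc1a (0.51) without 5-aza and by Cenpa, the centromeric histone (0.84), with it. With 5-aza 38 fell in control hairpin cells, beside 5.34% of all genes. Lowest were the kinesin Kif14 (-0.63) and Mybl2, the MYB subunit that acts at CHR promoters (-0.59), while Psrc1 rose by 0.18. In Setdb1 hairpin cells 7 fell, again a share near the 7.51% of all genes. Of these 7 Aspm (a spindle pole protein, -0.36) and Casc5 (the kinetochore scaffold Knl1, -0.35) were lowest. The lowest value of the 64, -0.39, had no call.

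The regulators of G1 did not move as a block. Of 19 tested (20 listed), 5 rose and 1 fell with a Setdb1 hairpin without 5-aza, and 7 rose and 2 fell with it. Among all genes 9.01% rose and 3.4% fell without 5-aza, and 14.5% rose and 5.37% fell with it. The 1 that fell in both was Cdkn1a, the p21 inhibitor of cyclin-dependent kinases. It stood at 777, 736 and 690 RPM in control hairpin cells and 547, 596 and 650 RPM with a Setdb1 hairpin (log2 fold change -0.30 ± 0.07, limma adjusted p = 0.0147). With 5-aza the values were 893, 840 and 861 RPM against 645, 730 and 703 RPM (-0.32 ± 0.07, adjusted p = 0.00718).

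Ccnd2, cyclin D2, fell by 0.25 with 5-aza present. Of the called genes Cdkn2c (0.37) and the repressor E2f8 (0.37) rose most without 5-aza, where the highest value of the list, 0.45, had no call. With 5-aza the repressor E2f7 (0.63) and the inhibitor Cdkn1c (0.59) rose most. 5-aza raised Ccnd1, cyclin D1, in both backgrounds (0.49 and 0.65) and Cdkn1a as well (0.24 and 0.21). It lowered E2f7 (-0.55) and Cdkn2c (-0.41) in control hairpin cells and Cdkn1b, the p27 inhibitor (-0.49), and Myc (-0.24) in Setdb1 hairpin cells.

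Some members share sequence with other genes. Pcna-ps2, a processed copy of Pcna on chromosome 19, carried more reads than Pcna itself (31.2, 30.9 and 31.6 RPM against 21.3, 22.3 and 22.5 RPM in control hairpin cells) and moved with it (0.32 without and 0.51 with 5-aza), so reads of the 2 may be divided between them and the level of Pcna is uncertain. Exons of 17 members overlap those of another gene in GENCODE vM21, in 15 of them on the opposite strand; whether counting used the strand is not given in the sources used here. Rfc4, Slbp and Mcm7 are among these, as are Plk1, Cdc20 and Foxm1.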

How the data were processed

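Polyadenylated RNA was sequenced from MEFs (TruSeq; 100-bp single-end reads per the study). The authors deposited 1 table of log2 RPM per gene (log2 scale); how reads were counted and how genes were matched is not given in the sources used here. The submitters' processing notes name CASAVA 1.4 and mm10. Low values were whole multiples of 1 read (100% of low values within 0.1 of a whole number), worth 0.017 to 0.0239 RPM in the hairpin libraries, and genes with no read had been set to 0.9 of 1 read before the log.

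The 25965 genes were filtered to the 13134 that reached 1 RPM in 3 or more hairpin libraries (of 12), and fitted together on the deposited log2 values with limma 3.58.1 (R 4.3.3, trend option, 4 groups of 3, no block), with Benjamini-Hochberg adjustment over all genes tested and a threshold of 0.05. SE is from the moderated fit. The fit was tested on simulated data with noise drawn independently for each gene and library. Deviations shared between genes or libraries were thus not covered. Alternatives changed the pseudocount (0.1 or 1 RPM), the filter (none, or 5 RPM), the scaling, the libraries and the block. Same-named libraries with and without 5-aza deviated together in Setdb1 hairpin cells (r = 0.472, 0.634 and 0.413 over genes). In control cells not every pair did (0.586, 0.149 and 0.100, the last just under the limit of 0.1 before rounding). The main counts of both come from the fit without a block. The blocked alternative blocked the same-named libraries of both hairpins together. Its Setdb1 hairpin counts stand beside the main ones, and its control hairpin counts with the other alternatives.

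Sequences and positions came from RefSeq promoters (GRCm38.p6), the study's hairpin list and GENCODE vM21. Named genes were 20 set members, plus, for each comparison, the members called (the 3 highest and 3 lowest where more than 6 were) and the 2 highest and 2 lowest called genes of each other list; members described beyond these were chosen after their values were seen. Members and lists were chosen with earlier results of these data known.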

Additional observations from a re-analysis of the deposited data

Results flagged for a closer look

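The library from 5-aza treated cells with no named hairpin, given the library name PGK and used in no comparison, did not sit with the treated control hairpin libraries. Of its S phase genes 20 of 25 were above all 3 control hairpin + 5-aza libraries, and of its mitotic genes 25 of 25; its mean level of mitotic genes was 0.11 on the scale of the library means, against -0.38 to -0.63 in those 3. Against the Setdb1 hairpin libraries without 5-aza it was below all 3 for 45 of the 50 genes and above all 3 for none. Against the Setdb1 hairpin + 5-aza libraries, which had the same treatment, it was within their range for 24 of the 50 genes. It was below all 3 of these for 21 and above all 3 for 5, and its mitotic mean lay between their 0.02 and 0.33. In the same library macrophage markers summed to 161 RPM, against at most 16.4 RPM in the hairpin libraries. It also had the fewest reads. The shares of all genes above or below the hairpin libraries in this way were not computed, so these counts are not shown to be particular to the members. The hairpin cells carry a PGK X beside another one. The study found PGK variants in a PGK sample and kept those whose reference allele did not appear in it. Whether this library, named PGK alone, is that sample is not stated, and its genotype is not given in the sources used here. Genotype, the lack of a named hairpin and culture cannot be told apart in its levels.

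Gins2 was the 1 member whose change with 5-aza was downward in all 3 control pairs of the same replicate name (-0.03, -0.23 and -0.03 on the log2 scale) and upward in all 3 Setdb1 pairs (0.17, 0.19 and 0.29). The interaction was 0.32 ± 0.16 in the limma fit, with an adjusted p of 0.794. Its exons overlap those of Gse1 on the opposite strand.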

How the results depend on the processing

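The numbers of members called were recomputed under 21 alternatives for the 4 simple comparisons and 20 for the interaction, for which no member was called in any. Every call in the Setdb1 comparisons was a rise in every setting. Without 5-aza, the S phase count of 12 was 7 with no filter, with median centring or with quantile normalization, and 0 with the non-silencing and shSetdb1.4 libraries alone, where the mitotic count of 22 was 4. The shares of all genes called higher were 3.83%, 6.02%, 6.07% and 2.7% in that order. For 5-aza in control hairpin cells, the S phase count of 7 was 4 with no filter, 13 with median centring, 12 with quantile normalization, 15 with those libraries alone and 12 with the 2 groups fitted alone. Called lower among all genes were 2.08%, 10.2%, 8.4%, 3.88% and 4.65% in that order. For 5-aza in Setdb1 hairpin cells, the S phase count of 2 was 6 with median centring and 7 with quantile normalization, and the mitotic count of 7 was 2 with no filter, 12 with median centring and 3 with the 2 groups fitted alone. Each of these S phase counts includes 1 rise. All genes called lower were 12.7% with median centring, 11.6% with quantile normalization, 2.92% with no filter and 5.97% with the 2 groups alone. Fewer libraries or more genes tested change these counts by construction; the cause of the other shifts was not tested.

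Leaving out 1 library at a time gave, without 5-aza, S phase counts of 3 to 18 and mitotic counts of 7 to 23 between the hairpins, and with 5-aza 12 to 25 and 25 throughout. Of all genes 4.1% to 10.1% were called higher without 5-aza and 7.06% to 18.1% with it. For 5-aza in control hairpin cells the ranges were 1 to 12 and 14 to 23, and in Setdb1 hairpin cells 2 to 5 and 1 to 10. Of all genes 2.43% to 6.15% were called lower in control hairpin cells and 3.91% to 8.63% in Setdb1 hairpin cells. Each S phase count in Setdb1 hairpin cells includes 1 rise, as does the control count without treated non-silencing replicate A.

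With the replicate name as a block, the S phase count for 5-aza was 16 in control hairpin cells (15 lower, 1 higher) and 14 in Setdb1 hairpin cells (11 lower, 3 higher). The mitotic counts were 25 and 13, all lower. Under this block 9.12% of all genes were lower and 20.6% higher in control hairpin cells. In Setdb1 hairpin cells 11.9% were lower and 28.3% higher. Only 2 of the 6 control libraries correlated best with their own number, against 6 of 6 with a Setdb1 hairpin. Blocking by letter across the hairpins gave 13 S phase and 23 mitotic rises without 5-aza and 25 of each with it. Of all genes 8.79% and 18.1% were called higher. Between control and Setdb1 hairpin libraries of the same letter, r was 0.190 (A) and -0.470 (B) without 5-aza. With 5-aza it was 0.686 (A) and -0.020 (B). Thus the A libraries deviated together, more so with 5-aza, and the B libraries did not. The main fit has no block.

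Of the single-gene values, 2737 kept their side of the threshold and direction, 218 lost a call, 49 gained one, and none of those called reversed.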
